A study of Mus musculus with 26 samples.

Results

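Netrins are secreted cues of the laminin superfamily that steer growing axons. The 9 genes described here were 3 netrins (Ntn1, Ntn3, Ntn4), the DCC-family receptors Dcc and Neo1, and the 4 UNC5 receptors Unc5a, Unc5b, Unc5c and Unc5d. They were found by gene symbol, 1 row each, among the 56941 genes measured. The members were chosen by family, from a proposal made with the count and TPM values of these libraries in view. All values below are therefore a description, test values are printed to set sizes against their error, and none is independent evidence. In the best-known scheme, netrin-1 from the floor plate of the spinal cord attracts axons that carry DCC, and a receptor of the UNC5 family, alone or with DCC, turns the response into repulsion. Neogenin, the product of Neo1, binds netrins and also repulsive guidance molecules. UNC5C and DCC are both known from the path-finding of spinal motor axons.

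The genes were measured by RNA sequencing in 26 libraries of HBG3 spheroids. HBG3 is 1 mouse embryonic stem cell line in which the promoter of the motor neuron factor HB9 (Mnx1) drives GFP, and its genotype label reads heterozygous blastocysts. All groups came from differentiation with retinoic acid and a Hedgehog agonist, received ciliary and glial derived neurotrophic factors from day 5, and were plated on fibrin at day 8. The design asked how mechanical and biochemical consequences of muscle exercise differ for motor neurons. In the mechanical arm, spheroids sat on a silicone array that a magnet moved for 30 min a day at 4 Hz (actuated array, n = 4) or on the array left still (static array, n = 4). In the biochemical arm, the labels name high intensity (n = 6), low intensity (n = 6) and biochemical control (n = 6) groups. High and low intensity are taken to be the groups that received muscle-conditioned medium, which the labels do not state sample by sample. Nothing says that replicates were separate cultures, so p-values measure only the spread between these samples.

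Total counts ranged from 1536 to 13162635 per library. Protein-coding genes held under 1000000 counts in 5 libraries, namely replicate 3 of the static array, replicates 4 and 5 of high intensity, replicate 6 of low intensity and replicate 4 of the controls. The other 21 are called the deeper libraries (5 control, 4 high-intensity, 5 low-intensity, 3 static-array and 4 actuated-array), and each result is given with and without the 5 shallow ones. In the deeper libraries every member had counts. All 18 counts of 0 among the 234 member values were in shallow libraries. Low-intensity replicate 6 had 0 for all 9 members, and high-intensity replicate 4 had 13 counts of Unc5c and 0 of the rest. Control replicate 4 had 0 counts of Unc5d. Motor neuron markers were present in every group, with a summed level of 70.5 to 162 CPM (counts per 1000000, scaled by TMM, which adjusts for library composition) over 7 genes in the deeper libraries. Of these, Isl2 was too low to be fitted. Fewer cells of a type and less RNA per cell cannot be told apart in such bulk samples.

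The family members are similar in protein but could be told apart by reads of 50 bases. No 50-base stretch was shared between any 2 members in the GENCODE M21 transcripts (build GRCm38). The coding stretches around the longest shared run of Ntn1 and Ntn3, and of the 2 UNC5 receptors with the longest shared run, are shown to make this visible. Ntn3 and Ntn4 also shared a run of 17 bases. Capitals mark the bases that differ, and positions count from the first base of the coding sequence.
Ntn1, bases 1034 to 1090: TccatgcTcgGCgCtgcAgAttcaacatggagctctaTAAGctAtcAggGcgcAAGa
Ntn3, bases 944 to 1000: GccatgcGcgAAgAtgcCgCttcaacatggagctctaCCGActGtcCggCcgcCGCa
Unc5b, bases 1013 to 1079: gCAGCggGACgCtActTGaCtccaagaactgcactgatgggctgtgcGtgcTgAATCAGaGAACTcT
Unc5c, bases 1055 to 1121: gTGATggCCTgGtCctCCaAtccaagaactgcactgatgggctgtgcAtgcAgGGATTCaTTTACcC
The netrin windows differed at 17 of 57 bases around an unbroken match of 17. The UNC5 windows differed at 26 of 67 bases around an unbroken match of 27. Ntn1, Neo1, Unc5a and Unc5d shared no 50-base stretch with any other annotated gene. Ntn3 shared 2.54% of its 50-base stretches with other genes, most of them with the antisense gene BC028777, and its exons also overlap Tbc1d24, so its low counts are uncertain. The share was 0.395% for Unc5c, mostly with the antisense gene Gm15688, and 0.651% or less for Ntn4, Unc5b and Dcc. Exons of Unc5a overlap 34 bases of Hk3 on the other strand. Whether the authors' counting used the strand is not given in the sources used here.

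Compared per transcript length, Neo1 and Ntn1 were the most abundant of the 9. On TPM (transcripts per 1000000, rescaled to the protein-coding genes), means over the 21 deeper libraries were 93.6 for Neo1, 73.8 for Ntn1, 30.0 for Unc5c, 17.2 for Unc5a, 11.3 for Unc5d, 6.44 for Ntn4, 6.31 for Unc5b and 2.19 for Ntn3. Dcc, between Unc5a and Unc5d in this order, ranged from 6.01 to 21.9 TPM. Single libraries overlapped between neighbours in this order: Neo1 ranged from 62.5 to 118 TPM and Ntn1 from 14.8 to 128. Ntn1 was the main netrin, with 81.0% ± 10.9 (SD, n = 5) of summed netrin TPM in controls and 92.9% ± 1.54 (SD, n = 3) on the static array.

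Ntn1 was the 1 member that passed the edgeR test, and it did so in the deeper libraries only. There it was about 2-fold higher at high and low intensity than in controls, and more than that on the static array. Unc5c was at the control level at high intensity, and had lower values at low intensity and on the static array that did not pass the test. On the actuated array Ntn1 was also above and Unc5c below the controls, a pair of groups that was not tested against each other. The log2 fold changes of Neo1 lay between -0.12 and 0.12 in the pairwise comparisons of the deeper libraries. With all 26 libraries in the model, none of the 9 passed an edgeR adjusted p of 0.05 in any comparison.

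The edgeR quasi-likelihood test over all genes (Benjamini-Hochberg adjustment) gave these counts of members. With all 26 libraries, 0 of 9 were called for high intensity against control, where 0.0402% of 14907 genes were called. For low intensity against control it was 0 of 9, with 0.0268% of all genes called, and for static array against control 0 of 9, with 0.0134% called. For actuated against static array, for high against low intensity and for the interaction (the actuation effect minus the high-intensity effect), 0 of 9 members and 0.0% of all genes were called. At an unadjusted p under 0.05, the all-library fit held 2 members (Ntn1 and Ntn3) for low intensity against control, beside 5.23% of all genes, and 1 (Ntn1) for static array against control, beside 5.27%. It held 0 members for high intensity against control (7.04% of all genes), actuated against static array (3.86%), high against low intensity (2.91%) and the interaction (6.57%). DESeq2 with all libraries called 0 members in all 6 comparisons. With the deeper libraries, Ntn1 alone was called for high intensity (1 of 9, beside 0.462% of 14730 genes), for low intensity (1 of 9, beside 0.597%) and for the static array (1 of 9, beside 0.713%), each against control. The other 3 comparisons had 0 of 9 called, beside 0.0% of all genes. At an unadjusted p under 0.05, the deeper libraries held 2 of 9 (Ntn1 and Unc5b) for high intensity against control, beside 15.9% of all genes. They held 4 (Ntn1, Ntn3, Unc5a and Unc5c) for low intensity against control, beside 15.2%, and 4 (Ntn1, Dcc, Unc5a and Unc5c) for static array against control, beside 12.6%. They held 1 (Unc5c) for high against low intensity, beside 7.68%, 2 (Ntn1 and Unc5a) for the interaction, beside 6.69%, and 0 for actuated against static array, beside 0.38%. The 3 comparisons with the control share the same control libraries, so they are not independent of each other.

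**Figure D1:**
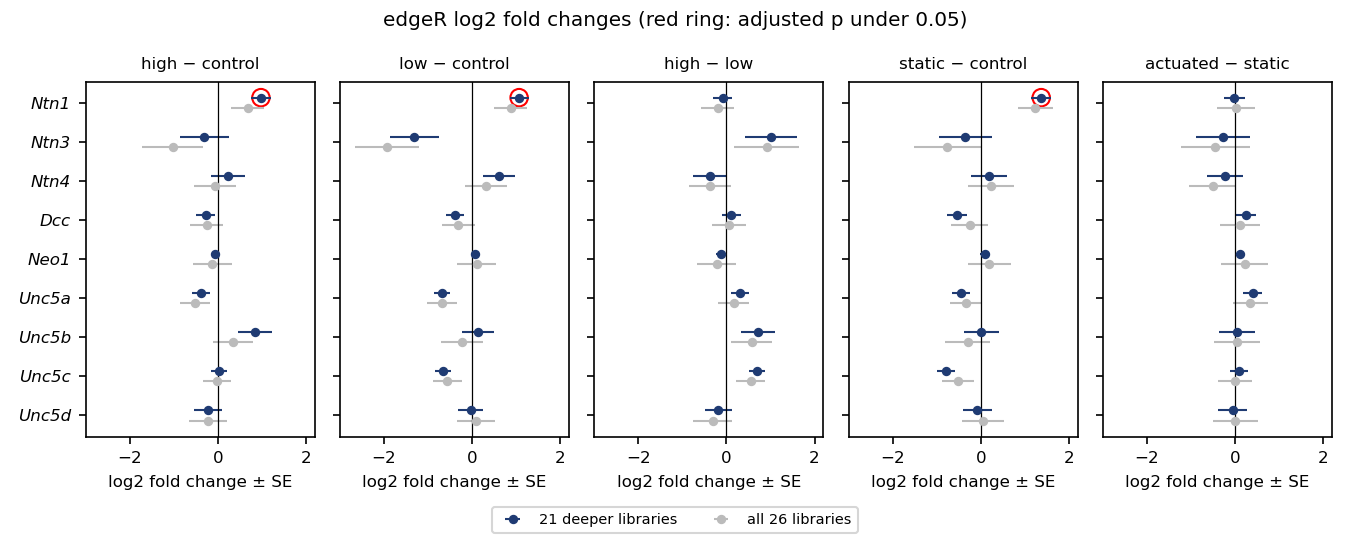
Fitted log2 fold changes (x axis) with standard errors (bars) of the 9 members (y axis) in 5 comparisons, from the 21 deeper libraries (dark) and all 26 (grey). Red rings mark an adjusted p under 0.05, which only Ntn1 in the deeper libraries reached, at 0.98, 1.07 and 1.37 against control.

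Ntn1 encodes netrin-1. Its level in the deeper control libraries (replicates 1, 2, 3, 5 and 6) was 45.7, 17.2, 27.7, 23.4 and 47.5 CPM. At high intensity (replicates 1, 2, 3 and 6) it was 60.3, 77.8, 65.8 and 54.8 CPM. At low intensity (replicates 1 to 5) it was 70.5, 75.3, 58.9, 80.9 and 58.2 CPM. Every deeper library of both intensity groups lay above every deeper control. The static array gave 70.6, 92.1 and 91.3 CPM (replicates 1, 2 and 4) and the actuated array 65.9, 74.7, 108 and 86.0 CPM. The 2 array groups overlapped each other and lay above the controls. Group means were 32.3 ± 13.6 CPM in controls (SD, n = 5), 64.7 ± 9.84 at high intensity (n = 4), 68.8 ± 10.04 at low intensity (n = 5), 84.7 ± 12.2 on the static array (n = 3) and 83.7 ± 18.3 on the actuated array (n = 4). Such a gap above the controls was found for 2.07% of genes at high intensity, 1.28% at low intensity, 4.52% on the static array and 3.39% on the actuated array.

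**Figure D2:**
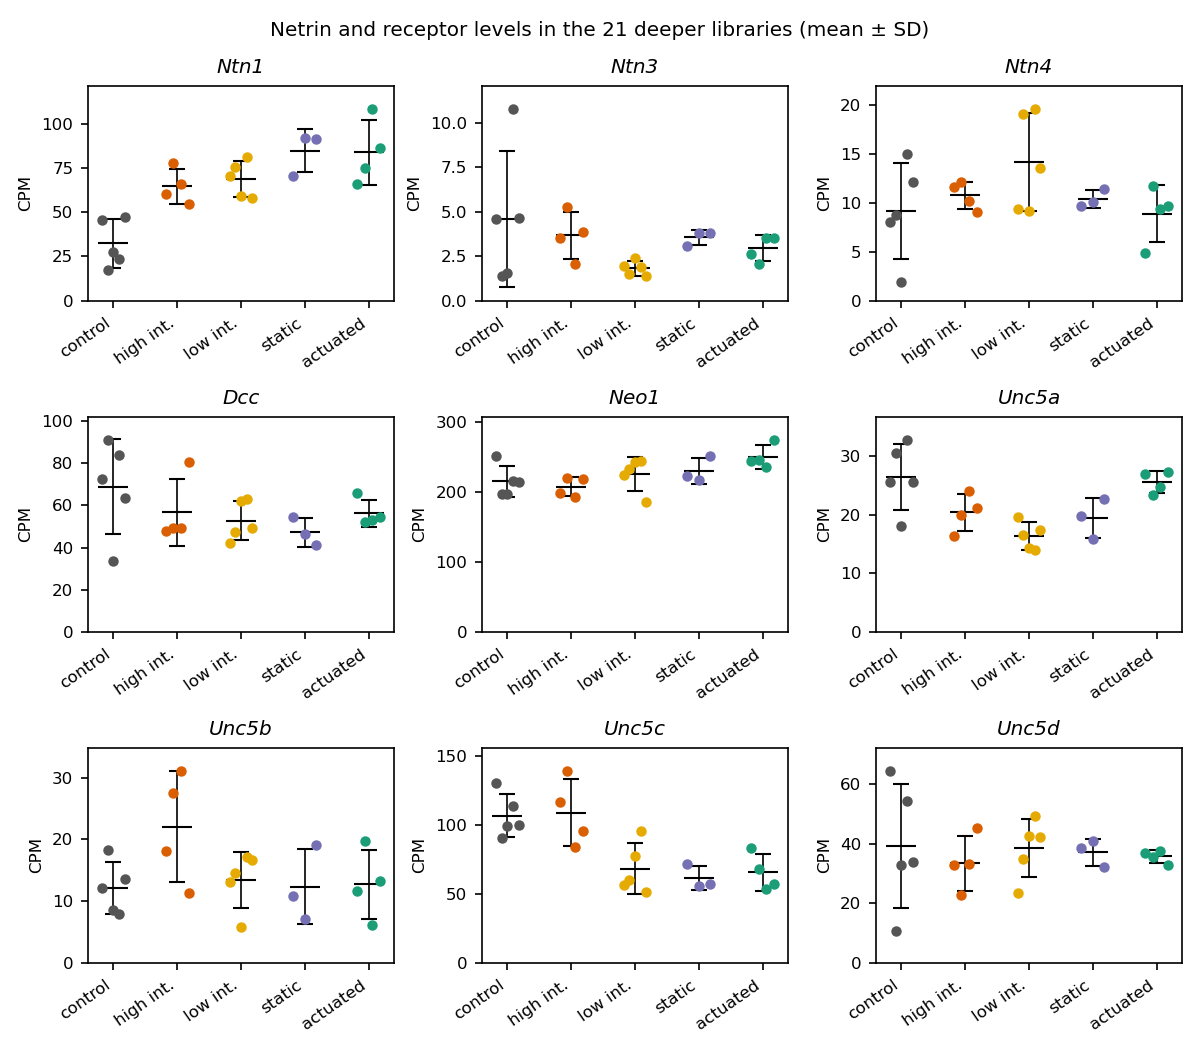
Level of each member (y axis, CPM, starting at 0) in each of the 21 deeper libraries (points) by group (x axis), with the group mean and SD (bars). For Ntn1 every control point lies at or under 47.5 CPM and every other point at or above 54.8 CPM, and for Unc5c the control and high-intensity points lie mostly above the other 3 groups.

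The log2 fold change of Ntn1 in the deeper libraries was 0.98 for high intensity against control (SE 0.22, edgeR adjusted p = 0.0452) and 1.07 for low intensity against control (SE 0.21, adjusted p = 0.0273). For static array against control it was 1.37 (SE 0.23, adjusted p = 0.00392). The level did not differ beyond its error between high and low intensity (log2 -0.09, interval of 2 SE -0.52 to 0.35) or between actuated and static array (log2 -0.02, interval -0.49 to 0.45). The interaction was -0.996 (SE 0.32, unadjusted p = 0.00503, edgeR adjusted p = 0.66). With all 26 libraries the log2 fold changes were 0.68 (SE 0.38, edgeR adjusted p = 0.77), 0.88 (SE 0.38, adjusted p = 0.82) and 1.24 (SE 0.40, adjusted p = 0.53) in the same order. The common dispersion, a measure of spread between libraries of a group, was 0.251 with all libraries and 0.0923 with the deeper ones.

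The call for Ntn1 at high intensity rested on which libraries entered. It was kept in 9 of 21 fits of the deeper libraries that each left out 1 library, with log2 fold changes from 0.82 to 1.16. It was lost (edgeR adjusted p 0.0511 to 0.159) without actuated-array replicate 1, 2 or 4, static-array replicate 1 or 2, low-intensity replicate 4, control replicate 2, 3 or 5, or high-intensity replicate 1, 2 or 3. At low intensity it was kept in 17 of 21 such fits and lost without low-intensity replicate 1 or 2 or control replicate 3 or 5 (edgeR adjusted p up to 0.0879). For the static array it was kept in 21 of 21, with adjusted p from 0.00192 to 0.046. A fit of only the groups compared gave edgeR adjusted p-values of 0.179, 0.0874 and 0.059 for Ntn1 at high intensity, at low intensity and on the static array. In the same order limma on log2(TPM + 1) gave 0.208, 0.254 and 0.235, and limma voom 0.335, 0.172 and 0.00872. DESeq2 gave 0.00333, 0.000357 and 1.57e-05. EdgeR with the replicate number as a block gave adjusted p-values of 0.101, 0.0937 and 0.0493.

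The methods also differed in how many genes they called in the deeper libraries. For high intensity, low intensity and static array, each against control, DESeq2 called 1, 3 and 2 of 9 members, beside 3.17%, 3.26% and 2.59% of all genes. The 3 members at low intensity were Ntn1, Unc5a and Unc5c, and the 2 on the static array Ntn1 and Unc5c. EdgeR on protein-coding genes alone called 1, 1 and 2 members, beside 0.977%, 0.803% and 0.712%. Voom called 0, 0 and 2, beside 0.0%, 0.00679% and 1.03%. The fit of the groups compared called 0, 0 and 0, beside 0.13%, 0.169% and 0.315%, and limma on log2(TPM + 1) 0, 0 and 0, beside 0.303%, 0.121% and 0.0%. With all 26 libraries, voom called 1 member (Ntn1) for static array against control, beside 0.282% of all genes.

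Of the shallow libraries, control replicate 4 had an Ntn1 value above the deeper controls, with a counting interval that reached into their range. It held 22 Ntn1 counts, or 80.8 per 1000000 protein-coding counts (95% exact Poisson interval 50.6 to 122), where the deeper controls had 19.8 to 58.5 and the deeper libraries of the other groups 67.5 to 130. High-intensity replicate 5 had 87.0 (58.7 to 124) on the same scale and static-array replicate 3 had 109 (81.1 to 144), both within the range of the deeper non-control libraries. High-intensity replicate 4 held 0 Ntn1 counts of 184317, which allows up to 16.3 on that scale at a limit of 3 counts. Its 95% exact Poisson interval reached 20.01, just into the range of the deeper controls. The gap between controls and the other groups is therefore a statement about the deeper libraries only. These intervals cover counting error only.

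Ratios inside a library do not depend on its scaling. Against 100 counts of Neo1, Ntn1 had 8.72 to 22.2 counts in the 5 deeper controls and 25.03 to 35.5 at high intensity. It had 24.3 to 33.2 at low intensity, 31.8 to 42.4 on the static array and 27.0 to 45.9 on the actuated array. No deeper library of the other groups fell into the control range. The share of all genes with such a gap in a ratio to Neo1 was not counted. Control replicate 4 stood at 129, on 17 counts of Neo1.

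**Figure D3:**
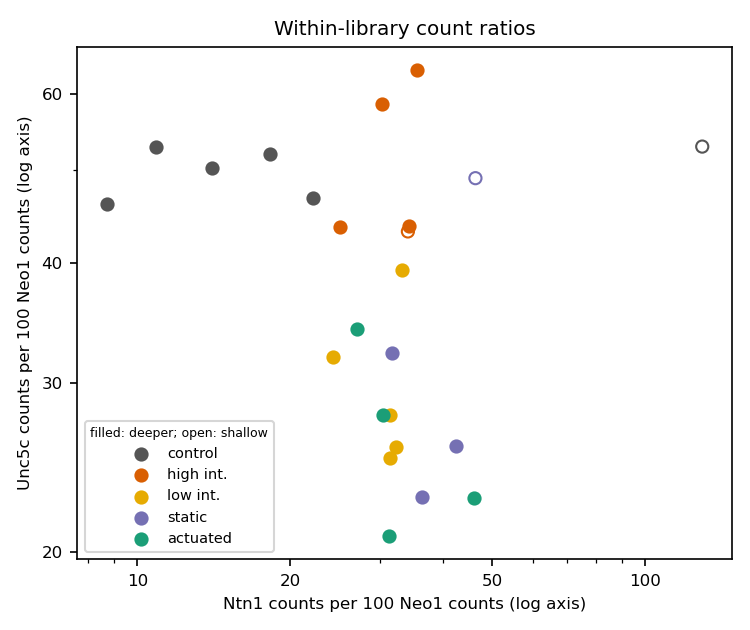
Counts of Ntn1 (x axis) and Unc5c (y axis) per 100 counts of Neo1 in each library, both on log axes, coloured by group; filled points are deeper and open points shallow libraries. Deeper controls lie upper left, high intensity upper right and the other 3 groups lower right, while control replicate 4 lies at 129 on the x axis and static-array replicate 3 at 49.1 on the y axis.

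Some other features differed between the groups as well. The 7SL RNAs Rn7s1 and Rn7s2, parts of the signal recognition particle, took 27.8% to 61.0% of all deposited TPM in the deeper controls. Their share was 12.1% to 32.7% at high intensity, 11.9% to 19.9% at low intensity, 19.2% to 30.2% on the static array and 14.7% to 26.9% on the actuated array. Among the deeper controls, only replicate 3 (27.8%) had a share within the range of another group, so controls and the other groups barely overlapped in share. The part of this share in the Ntn1 values was not tested. The 7 neural progenitor markers summed to 208 to 270 CPM in controls, 263 to 611 at high intensity, 264 to 697 at low intensity, and 248.6 to 268 and 233 to 277 on the static and actuated arrays. Nes alone carried the high values, with 103 to 168 CPM in controls, 126 to 487 at high and 117 to 601 at low intensity. The other 6 summed to 101 to 142 CPM in controls, 116 to 136 at high and 95.9 to 173 at low intensity, so these ranges overlapped. The 5 floor plate markers, from the tissue that is a known source of netrin-1, summed to 242 to 269 CPM in controls, 232 to 314 at high intensity and 191 to 304 at low intensity. They summed to 275 to 283 on the static and 264 to 321 on the actuated array, and the defining floor plate factor Foxa2 was too low to be fitted. The floor plate ranges at both intensities and on the actuated array overlapped that of the controls, while the static array lay above every control. Spon1 made up most of these sums, with 184 to 213 CPM in controls and 195 to 227 on the static array. The other 4 floor plate markers summed to 52.3 to 73.2 CPM in controls and 55.1 to 88.0 on the static array. Taken apart in this way, the ranges of these groups overlapped. Glial markers had higher sums on the static array than in controls. The 5 astroglial markers, Gfap among them, summed to 2165 to 3006 CPM in controls, 2385 to 2738 at high intensity and 2120 to 3734 at low intensity. They summed to 3389 to 4143 on the static array, above every control, and 2824 to 4466 on the actuated array. The 4 oligodendroglial markers summed to 67.8 to 155 CPM in controls, 112 to 193 at high and 79.7 to 320.4 at low intensity. They summed to 208 to 493 on the static array, again above every control, and 111 to 514 on the actuated array. The part of these cell types in the values of Ntn1 and Unc5c was not tested.

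**Figure D4:**
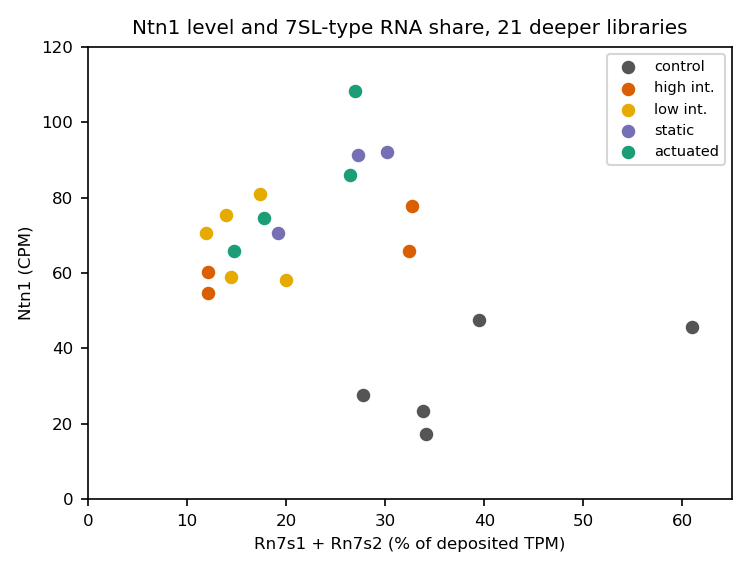
Ntn1 level (y axis, CPM) against the summed share of Rn7s1 and Rn7s2 in the deposited TPM (x axis, percent) in the 21 deeper libraries, coloured by group. Controls span 27.8% to 61.0% with Ntn1 at 17.2 to 47.5 CPM, and the other groups 11.9% to 32.7% with Ntn1 at 54.8 to 108 CPM.

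On TPM the controls and the other groups overlapped, which they did not on CPM. In the deposited TPM, Ntn1 was at 30.7 in control replicate 6, above 30.0 in high-intensity replicate 1 and 18.1 in low-intensity replicate 5. The other deeper controls were at 5.48 to 13.5, and all deeper array libraries at or above 41.1. On TPM over protein-coding genes, Ntn1 was 49.2, 14.8, 30.3, 26.3 and 83.2 in control replicates 1, 2, 3, 5 and 6, so that replicate 6 lay within the range of every other group. Low-intensity replicate 5 was at 32.7 TPM, also inside the control range. TPM divides by an estimated transcript length. The length implied for Ntn1 by its count and TPM, relative to other genes, was 0.551 in control replicate 6 and 1.55 in low-intensity replicate 5, the lowest and highest of the deeper libraries. The part of these lengths in the overlap on TPM was not tested.

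The other netrins were low. Ntn3 ranged from 1.40 to 10.8 CPM in controls, 2.04 to 5.27 at high intensity, 1.36 to 2.38 at low intensity, 3.05 to 3.82 on the static array and 2.07 to 3.54 on the actuated array. Its highest value was a single control, replicate 5. For low intensity against control, the log2 fold change of Ntn3 was -1.31 in the deeper libraries (SE 0.56, edgeR adjusted p = 0.26) and -1.93 with all libraries (SE 0.74, adjusted p = 0.65). Ntn4, a netrin closer to laminin beta chains and known from basement membranes, had means of 8.90 to 14.2 CPM. Its widest difference in the deeper libraries was at low intensity against control (log2 0.62, SE 0.37, edgeR adjusted p = 0.44), with groups that overlapped.

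Of the DCC family, Neo1 was the steadiest member. Its group means were 215 ± 22.0 CPM in controls (SD, n = 5), 207 ± 13.9 at high intensity (n = 4), 226 ± 24.2 at low intensity (n = 5), 230 ± 18.7 on the static array (n = 3) and 250 ± 16.8 on the actuated array (n = 4). Its SD within groups was 0.13 on the log2 scale, the smallest of the 9, where Ntn1 had 0.37 and Ntn4 0.64. For actuated against static array, its log2 fold change in the deeper libraries was 0.12, with an interval of 2 SE from -0.11 to 0.35.

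Dcc, the receptor for attraction, was 72.8, 91.1, 33.5, 83.8 and 63.5 CPM in the deeper controls. At high intensity it was 47.7, 49.0, 49.5 and 80.4 CPM, and at low intensity 42.1 to 63.2 CPM with a median of 49.3. The static array gave 54.7, 46.2 and 41.0 CPM and the actuated array 65.8, 52.2, 53.0 and 54.3 CPM. Control replicate 3 was the lowest library and all groups overlapped the controls. The difference between static array and controls was log2 -0.54 in the deeper libraries (SE 0.23, edgeR adjusted p = 0.31) and -0.25 with all libraries (SE 0.42, adjusted p = 1.0).

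Among the UNC5 receptors, Unc5c was the most abundant. In the deeper controls it was 131, 90.8, 99.2, 114 and 100.3 CPM, and at high intensity 117, 139, 84.2 and 95.6 CPM. These groups covered the same range. At low intensity it was 56.4, 59.9, 77.7, 96.1 and 51.4 CPM. On the static array it was 71.7, 56.0 and 57.4 CPM, and on the actuated array 83.4, 68.4, 53.7 and 57.0 CPM. Both array groups lay under all deeper controls, and 4 of the 5 low-intensity libraries did, replicate 4 being the exception. A gap under the controls was found for 3.62% of genes on the static array and 2.52% on the actuated array.

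The log2 fold change of Unc5c in the deeper libraries was 0.03 for high intensity against control (SE 0.18, edgeR adjusted p = 0.96). For low intensity against control it was -0.66 (SE 0.17, adjusted p = 0.0614), and for static array against control -0.79 (SE 0.20, adjusted p = 0.0589). None of these passed. The direct comparison of high with low intensity gave 0.69 (SE 0.18, unadjusted p = 0.00088, edgeR adjusted p = 0.27). DESeq2 on the deeper libraries called Unc5c in 3 comparisons. Its adjusted p was 0.0157 for low intensity against control, 0.00548 for static array against control and 0.0371 for high against low intensity. For high against low intensity DESeq2 gave an adjusted p to only 5592 genes, of which 0.876% were called. On the static array Unc5c was also called by voom (adjusted p = 0.0277) and by edgeR on protein-coding genes (adjusted p = 0.0482). With all 26 libraries edgeR gave -0.56 (SE 0.33, adjusted p = 1.0) for low intensity and -0.52 (SE 0.36, adjusted p = 1.0) for static array, each against control, and 0.55 (SE 0.33, adjusted p = 1.0) for high against low intensity.

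Per 100 counts of Neo1, Unc5c had 46.1 to 52.8 counts in the deeper controls and 43.6 to 63.6 at high intensity. It had 25.1 to 39.4 at low intensity, 22.8 to 32.3 on the static array and 20.8 to 34.2 on the actuated array, so these 3 groups did not reach the first 2. On CPM, low-intensity replicate 4 (96.1 CPM) lay within the range of the deeper controls. The share of all genes with such a gap in a ratio to Neo1 was not counted. Shallow static-array replicate 3 went against this, with 49.1 on 108 counts of Neo1. Control replicate 4 (52.9) and high-intensity replicate 5 (43.2) were close to the deeper libraries of their groups in this ratio. That control rested on 9 counts of Unc5c and 17 of Neo1. Scaled to protein-coding counts as for Ntn1, its Unc5c was 33.1 (95% exact Poisson interval 15.1 to 62.8), under the deeper controls (105 to 160). Static-array replicate 3 had 116 (86.7 to 151), above the deeper static-array libraries (66.7 to 85.9). High-intensity replicate 5 had 110, within its group's range. Replicate 4 had 70.5, with an interval (37.6 to 121) that reached into that range. The motor neuron markers summed to 105 to 162 CPM in controls, 75.2 to 128 at high intensity and 70.5 to 118 at low intensity, and to 73.7 to 89.1 on the static and 95.7 to 131 on the actuated array. Their part in the values of Unc5c and of the other receptors was not tested. The glial markers given above also differed on the static array.

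RefSeq promoter sequences (build GRCm38.p6) were at hand for 6 of the 9 genes. The 250 bases before the start of Neo1, the steadiest member, and of Unc5c, the most abundant UNC5 receptor, are printed 5′ to 3′ on the gene's strand. Capitals mark the motif GGGCGG or its reverse complement CCGCCC, the GC box to which Sp1-type factors are known to bind.
Neo1, chr9:59036442-59036691, minus strand: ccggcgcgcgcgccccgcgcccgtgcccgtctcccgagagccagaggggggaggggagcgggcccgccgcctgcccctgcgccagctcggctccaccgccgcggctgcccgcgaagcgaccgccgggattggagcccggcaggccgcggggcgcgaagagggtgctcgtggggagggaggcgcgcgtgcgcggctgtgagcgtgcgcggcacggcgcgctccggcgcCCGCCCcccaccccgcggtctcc
Unc5c, chr3:141465314-141465563, plus strand: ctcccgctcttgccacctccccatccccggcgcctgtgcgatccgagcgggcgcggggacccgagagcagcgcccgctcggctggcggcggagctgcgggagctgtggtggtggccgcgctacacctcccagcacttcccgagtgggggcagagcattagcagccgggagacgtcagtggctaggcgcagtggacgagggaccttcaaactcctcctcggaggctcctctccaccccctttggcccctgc
The Neo1 window is 83.2% G or C with 45 CpG, and the Unc5c window 71.2% with 23 CpG. Over 32851 promoter windows of this length the medians were 52.4% and 6 CpG. A GC box on either strand occurred in 5 of the 6 windows (Neo1, Ntn3, Ntn4, Unc5a and Unc5b) and in 32.7% of all windows. TATAAA occurred in 0 of 6 and in 12.4% of all, and CANNTG, the E-box, in 0 of 6 and in 66.2% of all. These are matches of letters only.

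Unc5a was 25.6, 30.5, 18.1, 32.8 and 25.5 CPM in the deeper controls and 16.4, 19.9, 24.1 and 21.2 CPM at high intensity. At low intensity it was 19.6, 16.5, 14.3, 13.9 and 17.3 CPM, the lowest group. The actuated array, with 26.9, 23.4, 24.7 and 27.2 CPM, lay above the static array, with 19.8, 15.8 and 22.7 CPM. That gap was shared with 2.1% of all genes, and its log2 fold change of 0.40 (SE 0.21) had an edgeR adjusted p of 1.0. For low intensity against control the log2 fold change was -0.68 in the deeper libraries (SE 0.19, edgeR adjusted p = 0.0734), and the same -0.68 with all libraries (SE 0.35, adjusted p = 0.98). DESeq2 on the deeper libraries gave an adjusted p of 0.0422 for it. The interaction for Unc5a in the deeper libraries was 0.78 (SE 0.29, unadjusted p = 0.013, edgeR adjusted p = 0.66).

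Unc5b, known for its role in blood vessels as well as axons, was 12.1, 18.2, 8.46, 7.95 and 13.6 CPM in the deeper controls. At high intensity it was 18.2, 27.6, 31.1 and 11.3 CPM, and the groups overlapped. Its log2 fold change was 0.84 in the deeper libraries (SE 0.38, unadjusted p = 0.035, edgeR adjusted p = 0.27) and 0.35 with all libraries (SE 0.46, adjusted p = 0.95). The other 3 groups had means of 12.3 to 13.4 CPM. The 6 mesenchymal markers, among them Col1a1, also had higher sums at high intensity, with 881 to 2353 CPM against 330 to 871 CPM in controls. They summed to 223 to 2533 CPM at low intensity, 148 to 754 on the static and 39.2 to 564 on the actuated array, and their part in the Unc5b values was not tested. The endothelial markers summed to 10.9 to 34.6 CPM at high intensity and 2.69 to 27.7 in controls.

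Unc5d had group means of 33.4 to 39.2 CPM. Its 5 deeper controls ran from 10.5 CPM (replicate 2) to 64.4 CPM (replicate 1), a wider spread than in any other group. No log2 fold change of Unc5d exceeded 0.22 in size in the 5 pairwise comparisons of the deeper libraries, with standard errors of 0.29 to 0.33. For high intensity against control the interval of 2 SE was -0.84 to 0.40.

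Summed by length, the UNC5 receptors had lower mean shares of the receptor transcripts at low intensity and on both arrays than in controls, a difference that was not tested. The 4 UNC5 receptors made 43.1% ± 5.36 of receptor TPM in controls (SD, n = 5) and 43.6% ± 6.13 at high intensity (n = 4). They made 33.7% ± 5.35 at low intensity (n = 5), 33.1% ± 3.03 on the static array (n = 3) and 32.9% ± 2.65 on the actuated array (n = 4). Single libraries ranged from 34.97% to 49.9% in controls and from 28.1% to 40.7% at low intensity, so these groups overlapped. Dcc made 6.67% to 7.84% of receptor TPM in the group means.

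**Figure D5:**
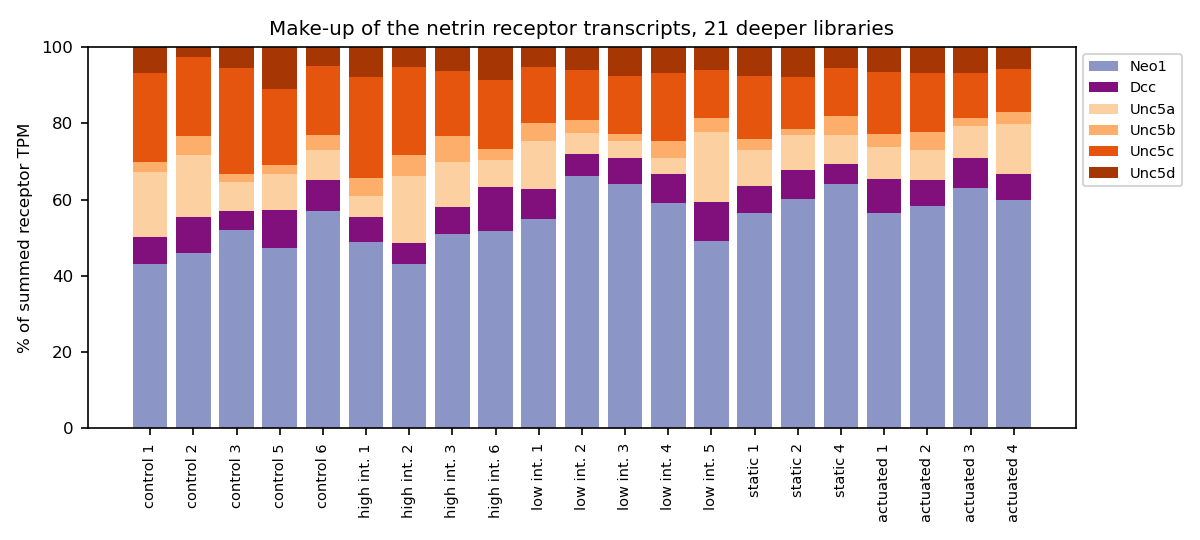
Share of each receptor in the summed TPM of the 6 receptors (y axis, percent) in each of the 21 deeper libraries (x axis). Neo1 is the largest share in every bar, and the 4 UNC5 receptors (orange shades) together average 43.1% in controls and 43.6% at high intensity, against 32.9% to 33.7% in the other groups.

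No difference between actuated and static array passed the test for any of the 9 genes. Among the deeper libraries 5 of 9 log2 fold changes were above 0, with a median of 0.05, where 49.8% of all genes were above 0. The sizes ran from -0.28 for Ntn3 to 0.40 for Unc5a. At 2 standard errors, the interval for Ntn1 reached from -0.49 to 0.45 and that for Unc5c from -0.31 to 0.49. Static array against control compares the 2 arms, which differed in platform and in depth (7724923 to 13162635 against 2273487 to 3771637 total counts in the deeper libraries), and these cannot be told apart.

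The wider pathway was described by 3 lists of 58 genes, of which 55 could be fitted: 5 genes of the netrin-G family and its receptors, 14 other ligands and co-receptors, and 39 intracellular effectors. With all libraries edgeR called 0 of 55 in each of the 6 comparisons. Over the deeper libraries it called 0 of 55 in 5 comparisons and 1 of 55 for static array against control. That gene was Dscaml1, an adhesion molecule related to DSCAM, which is itself reported as a netrin receptor. Its mean level was 7.76 CPM in controls and 18.5 CPM on the static array (log2 1.24, SE 0.30, edgeR adjusted p = 0.0447), and 15.7 CPM at low intensity (log2 1.01, SE 0.28, adjusted p = 0.0727). With all libraries the static-array value was 1.25 (SE 0.41, edgeR adjusted p = 0.53).

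At an unadjusted p under 0.05, the deeper libraries held 9 of the 55 for high intensity against control (4 higher, 5 lower), beside 15.9% of all genes, and 6 for low intensity against control (3 higher, 3 lower), beside 15.2%. Static array against control held 8 (2 higher, 6 lower), beside 12.6%. For high against low intensity it was 6 (4 higher, 2 lower), beside 7.68%, for the interaction 2, beside 6.69%, and for actuated against static array 0, beside 0.38%. Median log2 fold changes of the 55 lay between -0.02 and 0.03 in these comparisons.

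By the smallest p, Dock1, an activator of Rac in the DCC pathway, was at 93.5 CPM at high intensity and 60.6 in controls (log2 0.63, SE 0.18, edgeR adjusted p = 0.0977). Pitpna, a phosphatidylinositol transfer protein that binds DCC, was at 179 CPM at high intensity and 224 in controls (log2 -0.32, SE 0.11, adjusted p = 0.16). Fyn, a kinase that phosphorylates DCC, was at 203 CPM at high and 263 CPM at low intensity (log2 -0.37, SE 0.11, edgeR adjusted p = 0.40). Ntng1, a membrane-anchored netrin-G, was at 18.6 CPM at low intensity and 28.7 in controls (log2 -0.62, SE 0.21, edgeR adjusted p = 0.15). Actuated against static array had Draxin, a secreted protein that binds netrin-1 and DCC, at 35.9 and 29.0 CPM, and Rgma, a neogenin ligand, at 185 and 160 CPM (edgeR adjusted p = 1.0 for both). In the interaction the smallest p-values were those of Enah, an actin regulator (0.35, SE 0.17), and Map1b, a microtubule protein (0.42, SE 0.20), both with an edgeR adjusted p of 0.74. Map1b was also the most abundant pathway gene, with 2423 TPM over protein-coding genes, before the ubiquitin ligase Nedd4 (645 TPM) and Maged1 (452 TPM), a protein that binds UNC5 receptors.

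The genes whose levels ran most like a member's were sought among 11322 protein-coding genes, by Pearson's r of log2 CPM over the 21 deeper libraries after subtracting group means. These libraries share depth and composition differences, and no p is given. For Ntn1 they were Timm8b (r = 0.91), Ak4 (0.88) and Sqle (0.81), and for Unc5c Zfp287 (0.83), Rmnd5a (0.82) and Epha3 (0.80). For Unc5b they were Aebp1 (0.89), Col5a2 (0.86) and Bgn (0.85), all known as connective tissue matrix genes. Neo1 ran most like Mfsd9 (0.87), Dcc like Ociad1 (0.87), Unc5a like Inpp5e (0.91), Unc5d like Atf2 (0.92) and Ntn4 like Micall2 (0.89). Ntn3 was too low for this.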

How the data were processed

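RNA was sequenced in 26 spheroid libraries (4 ng RNA, rRNA-depleted, paired reads of 50 bases, with PCR of 5 and 15 cycles). The authors deposited estimated counts per gene (expected counts, written as whole numbers and not scaled for depth) and TPM values that sum to 1000000 per library. STAR, Salmon, BWA 0.7.12-r1039 and bedtools 2.25.0 and the builds mm10, hg19 and GRCm39 are named in the submitters' processing notes, with no role, so no gene coordinates were taken from the files. Rounded counts were fitted with edgeR 4.0.16 (R 4.3.3): filterByExpr (14907 genes), TMM, the quasi-likelihood test, all 26 libraries in 1 model and Benjamini-Hochberg over all genes, with a threshold of 0.05. The deeper libraries (over 1000000 protein-coding counts; 14730 genes), DESeq2 1.42.0, limma 3.58.1 (voom, or log2(TPM + 1) and log2(TPM + 0.1)), other filters, a replicate block and leaving out each library were alternatives. TPM used for levels was rescaled to protein-coding genes. On data simulated for high intensity against control, edgeR recovered 94% of 100 genes changed 4-fold and 100% of 100 changed 8-fold. These were among 14907 genes, with 8 false calls. With the deeper libraries it recovered 98% of 100 and 98% of 100 among 14730 genes, with 12 false calls. The changed genes were drawn from the more abundant ones. Changes under 4-fold, as those of Ntn1 were, were not simulated, so their recovery is not known.

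The members, pathway lists, marker lists and tests were chosen with earlier results of these data known. Named genes are all members; in the pathway lists those called, otherwise the 2 of smallest p in each comparison (given for the deeper libraries); the 3 most abundant; and the genes most alike in level to members of at least 5 CPM. A count of 0 allows up to 3 counts, which is 0.228 to 1.93 CPM in the deeper libraries. Marker lists for spinal interneurons, skeletal muscle, pluripotent and pan-neuronal cells are given in the closing section.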

Additional observations from a re-analysis of the deposited data

Results flagged for a closer look

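Dcc in high-intensity replicate 6 stood at 80.44 CPM, apart from the other 3 deeper high-intensity libraries, of which the nearest was at 49.46 CPM. The gap was 0.945 of the group's whole range. Dcc in actuated-array replicate 1 stood at 65.77 CPM, with the nearest library of that group at 54.35 CPM and a gap of 0.842 of the range. Both came from 36 groups of 4 or 5 libraries searched, where chance alone marks about 1 in 20.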

How the results depend on the processing

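With all 26 libraries, 0 members were called in each comparison by edgeR under every filter, scaling, fit or left-out library tried, by DESeq2 and by limma, except 1 (Ntn1) by limma voom for static array against control. In the deeper libraries the counts for high intensity, low intensity and static array, each against control, were 1, 1 and 1 by edgeR, 1, 3 and 2 by DESeq2, 1, 1 and 2 on protein-coding genes only, 0, 0 and 2 by voom, and 0, 0 and 0 on the groups compared alone or on TPM. The shares of all genes called beside these counts are given in the Results above. DESeq2 also called 1 (Unc5c) for high against low intensity, beside 0.876% of the 5592 genes given an adjusted p. Leaving out 1 deeper library gave 0 to 1, 0 to 2 and 1 to 2 members. DESeq2 size factors with all libraries moved the median log2 fold change of all genes for static array against control from 0.09 to 0.23, and that for actuated against static array from -0.02 to -0.14. Under that scaling the sign turned for Ntn1, Dcc, Unc5b and Unc5d in actuated against static array and for Unc5c in high intensity against control and in the interaction, none of them called. On log2(TPM + 1) with all libraries, Unc5c for static array against control turned to 0.25 from -0.52, and Unc5a to 0.55 from -0.34. The cause was not tested. Over 63 alternatives the log2 fold change of Ntn1 was above 0 in all 63 in each comparison with the control, from 0.37 to 1.16, 0.49 to 1.25 and 1.08 to 2.38.

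With the replicate number as a block, the deeper libraries gave 0, 0 and 1 members for high intensity, low intensity and static array, each against control (edgeR adjusted p for Ntn1 of 0.101, 0.0937 and 0.0493), and all libraries 0 in every comparison. Whether the numbers pair the array libraries cannot be settled from 3 pairs. Deviations from group means correlated at -0.146 to 0.14 (median 0.103) in 3 same-numbered array pairs. In 9 other array pairs they correlated at -0.167 to 0.105 (median -0.0493). In the biochemical arm it was -0.209 to 0.0715 (median -0.0296) in 11 same-numbered pairs and -0.128 to 0.22 (median 0.00115) in 54 others. Depth limits the shallow libraries, where no member had more than 108 counts (Neo1 in static-array replicate 3).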

Other observations

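Of the marker lists not used above, the pan-neuronal markers summed to 2522 to 2894 CPM in the deeper controls and 1858 to 2783 CPM at high intensity. They summed to 2106 to 2868 CPM at low intensity, 2380 to 2769 on the static and 2594 to 2782 on the actuated array. Spinal interneuron markers summed to 15.4 to 27.0 CPM over all deeper libraries. Skeletal muscle markers summed to 8.46 to 66.9 CPM in controls, 16.3 to 171 at high intensity, 6.47 to 141 at low intensity, 6.03 to 107 on the static array and 4.19 to 24.6 on the actuated array. Des made up most of this, with 8.46 to 64.6 CPM in controls and 14.05 to 166 at high intensity, and the other 6 markers together stayed at or under 11.4 CPM in every deeper library. Myod1 and Myog were at 0 in all deeper controls. Pluripotency markers stayed at or under 7.57 CPM in every deeper library.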
